A study of Mus musculus with 52 samples.

Results

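The 8 genes described here are typical of the adrenal gland and were read in the testes of wild-type, Tug1-/- and Tug1-rescue mice: Mrap, Pnmt, Cyp21a1, Mc2r, Cyp11b1, Chga, Th and Dbh. They were taken by gene name, and all 8 were found among the 34865 genes of the testes table. The names themselves were chosen by their values in these same testes tables, with earlier results known, so the levels and ratios below are descriptions without a test. Tug1 is a long noncoding RNA gene on chromosome 11. The Tug1-/- allele (Tug1_tm1.1Vlcg) lacks most of Tug1 and expresses lacZ from the promoter of Tug1, which the deletion spared together with exon 1.

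The series holds 52 RNA-sequencing samples, of which 11 are the testes used here, all from males: 4 wild type, 4 Tug1-/- and 3 rescue. Rescue males were Tug1-/- with a Tug1 transgene and the doxycycline-dependent activator CAGs-rtTA3, in mice fed doxycycline, and the transgene, from 2 founders with random integration, encodes an isoform without the 5′ end of Tug1. All testes came from a mixed C57BL/6J and 129S6 background. The wild-type animals are listed as carrying no Neo and the Tug1-/- and rescue animals as carrying Neo and LacZ, while the study's methods state that the colony was bred from mice that had lost the neomycin gene. The labels and the methods differ on this point, and a Neo cassette, if present, cannot be told apart from the deletion. Eyes, heart, liver, spleen and embryonic fibroblasts (MEF) had 3 samples of each genotype, while prostate had 3 wild-type and 2 Tug1-/- samples. The brain values come from libraries that are not among the 52 samples, and the 6 F1 hybrid testes were not analysed here. Ages are not given in the labels.

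The adrenal gland joins a pair of endocrine tissues. In its cortex, the pituitary hormone ACTH binds the receptor encoded by Mc2r, which reaches the cell surface with the help of the accessory protein encoded by Mrap, and cholesterol is then turned into corticosteroids, with 21-hydroxylase (Cyp21a1) and 11-beta-hydroxylase (Cyp11b1) acting late in the pathway. In its medulla, chromaffin cells make catecholamines from tyrosine through tyrosine hydroxylase (Th), dopamine beta-hydroxylase (Dbh) and phenylethanolamine N-methyltransferase (Pnmt), which turns noradrenaline into adrenaline, and store them in granules together with chromogranin A (Chga). Leydig cells of the testis share the early steps of steroid synthesis with the adrenal cortex and make testosterone. Several of the 8 genes are also active outside the adrenal, Mrap for example in fat.

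The promoter windows of Chga and Th are shown because these genes of the catecholamine-storing cell had very different levels in the tissues measured. Windows were matched by symbol in RefSeq sequence (GRCm38.p6) for 3 of the 8 genes, Chga, Dbh and Th, and span 250 bases before to 50 after the RefSeq start. The capitals mark the letters TGACGT, or TGACGTCA where the full palindrome is present, the core of the element bound by factors that respond to cyclic AMP.
Chga, chr12:102554691-102554990, plus strand: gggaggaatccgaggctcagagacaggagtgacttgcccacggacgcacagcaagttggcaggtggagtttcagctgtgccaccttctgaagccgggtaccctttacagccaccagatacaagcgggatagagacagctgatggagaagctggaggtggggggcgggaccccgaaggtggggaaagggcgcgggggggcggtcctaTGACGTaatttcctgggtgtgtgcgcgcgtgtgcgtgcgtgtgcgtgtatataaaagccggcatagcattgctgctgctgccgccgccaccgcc
Th, chr7:142899946-142900245, minus strand: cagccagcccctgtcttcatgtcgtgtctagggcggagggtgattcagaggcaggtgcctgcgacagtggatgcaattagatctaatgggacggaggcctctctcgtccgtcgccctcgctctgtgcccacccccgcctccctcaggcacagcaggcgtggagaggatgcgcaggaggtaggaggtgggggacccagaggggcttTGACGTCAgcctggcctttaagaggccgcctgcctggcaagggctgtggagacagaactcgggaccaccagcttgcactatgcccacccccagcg
The capitals began 44 bases before the start in Chga and 45 bases before it in Th. On either strand, TGACGT was present in 7.51% and TGACGTCA in 1.79% of the 32851 promoter windows. The 8-letter match in Th contains TGACGT on both strands. The Dbh window held neither. A match is a description of the letters and not a bound site, and the annotated Th gene also has transcripts that begin at 142931128 and 142931120, far upstream of this window.

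The measured values are the authors' group means in TPM (transcripts scaled to a common library total), a level scaled to gene length and library size, without the values of single animals. No SD was computed and no test was run here for any of them, the study's own test results were not used, and the depth per sample is unknown. Ratios below were formed after adding 0.1 TPM to both means, and genes were counted as higher or lower when the ratio was past 1.5-fold and at least one of the means reached 0.5 TPM. The targeted gene itself, Tug1, had a mean of 40.1 TPM in wild-type, 0.885 TPM in Tug1-/- and 1.60 TPM in rescue testes. The rescue mean was 23.6-fold below the wild-type mean.

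Germ cell markers such as Prm1, Tnp1 and Ddx4 were within 1.5-fold of one another in all 3 groups for 8 of 8 genes, with summed levels of 50104, 47670 and 46458 TPM in wild type, Tug1-/- and rescue. The 8 epididymal markers stood apart. Their summed mean was 3217 TPM in wild-type, 810 TPM in Tug1-/- and 9.51 TPM in rescue testes. Of the 8, 7 were lower in Tug1-/- than in wild type, beside 4.31% lower and 3.54% higher over all genes. Lcn8 had means of 799, 0.244 and 0.160 TPM in that order, and Crisp1, the exception, 427, 760 and 0.348 TPM. At least 1 wild-type and at least 1 Tug1-/- library therefore held RNA of genes typical of the epididymis. Which animals these were cannot be told from group means, and the part of this difference in the values below was not tested.

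Of the 8 genes, 6 reached 0.5 TPM in wild-type or Tug1-/- testes. Mrap, Pnmt and Cyp21a1 were higher in Tug1-/- testes, and none was lower. Over all 26042 genes past the same minimum, 3.54% were higher and 4.31% were lower. Because the genes were named from this contrast, nothing is read from 3 of 8 against that share. Without the minimum, the median ratio was 1.30 over the 8 genes and 1.020 over all 34865 genes.

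**Figure D1:**
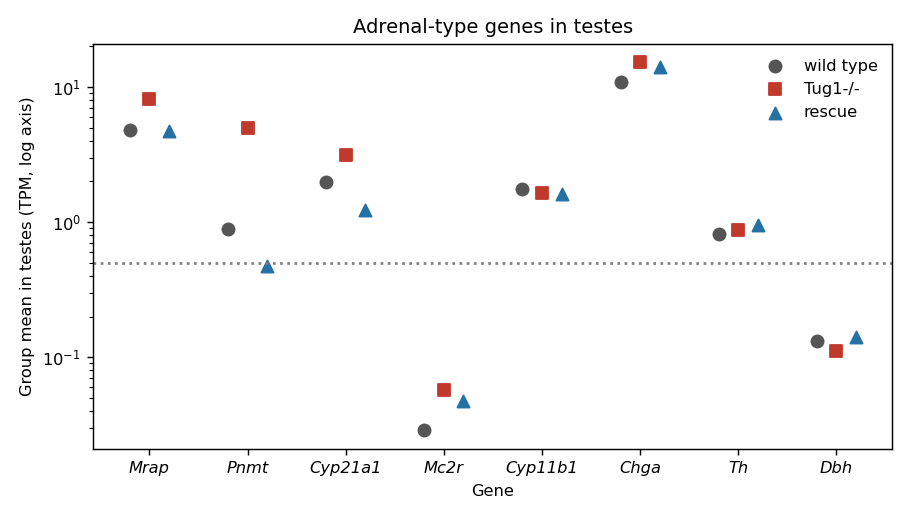
Authors' mean TPM (log axis) of each of the 8 genes in wild-type (grey circles), Tug1-/- (red squares) and rescue testes (blue triangles), with a dotted line at the minimum of 0.5 TPM. Mrap, Pnmt and Cyp21a1 are highest in Tug1-/-, while Mc2r and Dbh lie below the line in all 3 groups.

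Mrap (chr16:90738324-90749785, plus strand), whose protein escorts the ACTH receptor to the membrane, had a mean of 4.83 TPM in wild-type testes, 8.21 TPM in Tug1-/- testes and 4.75 TPM in rescue testes. The Tug1-/- mean was 1.68-fold the wild-type mean, and 2.08% of all genes had a higher ratio. The rescue mean was 1.71-fold below the Tug1-/- mean and stood at 98.4% of the wild-type mean. Mrap was the most abundant of the 3 genes that were past 1.5-fold in both of these comparisons.

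The receptor that Mrap serves was nearly absent from these libraries. Mc2r, on chromosome 18, had means of 0.0288 TPM in wild-type, 0.0572 TPM in Tug1-/- and 0.0477 TPM in rescue testes. All 3 groups were far below the minimum of 0.5 TPM, so no ratio of Mc2r was counted. The related accessory protein gene Mrap2 had means of 0.497, 0.420 and 0.266 TPM in the same order, also below the minimum. Pomc, which encodes the precursor of ACTH, differed little, with means of 13.8, 14.2 and 14.7 TPM.

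Cyp21a1 (chr17:34801348-34804561, minus strand), the 21-hydroxylase that commits progesterone to corticosteroids, had a mean of 1.99 TPM in wild-type, 3.12 TPM in Tug1-/- and 1.22 TPM in rescue testes. The ratio of Tug1-/- to wild type was 1.54, only just past the threshold, and 3.15% of all genes had a higher ratio. The rescue mean was 2.43-fold below the Tug1-/- mean and 1.58-fold below the wild-type mean. A pseudogene copy on the same chromosome, Cyp21a2-ps, had means of 0.0725, 0.120 and 0.110 TPM, and reads that match both copies were not counted. In the GENCODE vM21 annotation of the same build, 102 of 2140 exon bases of Cyp21a1, or 4.77%, also lie in exons of the pseudogene Tnxa on the opposite strand.

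The next enzyme of the corticosteroid pathway had similar means in the 3 groups. Cyp11b1 (chr15:74834125-74841643, minus strand) had means of 1.77 TPM in wild-type, 1.63 TPM in Tug1-/- and 1.61 TPM in rescue testes, and its Tug1-/- to wild-type ratio was 0.928. The aldosterone synthase gene Cyp11b2, its neighbour and close relative, had means of 1.70, 1.87 and 1.52 TPM. Since the authors counted uniquely mapped reads, reads that match both genes were not counted, and the level of either is uncertain for that reason. In addition, 285 of the 3165 exon bases of Cyp11b1 overlap exons of Gml2 on the opposite strand. Gml2 had means of 43.7, 45.2 and 49.3 TPM, and with a library kit that does not mark strand, reads from the shared bases cannot be assigned to either gene.

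Pnmt, the enzyme of adrenaline synthesis, showed the widest contrast of the 8 genes. Pnmt (chr11:98386450-98388181, plus strand) had a mean of 0.893 TPM in wild-type, 4.97 TPM in Tug1-/- and 0.476 TPM in rescue testes. The Tug1-/- mean was 5.11-fold the wild-type mean, and 0.169% of all genes had a higher ratio. The rescue mean was 8.80-fold below the Tug1-/- mean and 1.72-fold below the wild-type mean, standing at 53.4% of wild type. With 4 animals behind the Tug1-/- mean and no value for any of them, it cannot be seen whether all animals or 1 carried this level.

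Pnmt lies on the same chromosome as Tug1, but 94.7 Mb away from it. Of 9 annotated genes within 50 kb of Pnmt, 8 reached the minimum, and 1 was past 1.5-fold between Tug1-/- and wild type, beside 3.54% higher and 4.31% lower over all genes. This was Tcap, named here after its values were seen, which encodes telethonin of the muscle sarcomere and lies 1497 bases from Pnmt. Tcap had means of 0.212, 1.81 and 0.124 TPM in wild type, Tug1-/- and rescue, a Tug1-/- to wild-type ratio of 6.11. Stard3, on the far side of Tcap, had means of 11.0, 11.3 and 11.4 TPM, and Pgap3, 496 bases from Pnmt, 2.87, 3.37 and 2.05 TPM. Around the other 7 genes, no neighbour within 50 kb passed 1.5-fold in that comparison. Between rescue and Tug1-/- testes, the ratio was 0.118 for Tcap, 0.618 for Pgap3 and 0.550 for Erbb2, against 1.01 for Stard3 and 1.02 for Mien1. Over all genes, 4.49% were lower in that comparison. Erbb2 lies 24289 bases from Pnmt and had means of 3.33, 3.20 and 1.71 TPM. Whether these genes changed together with Pnmt was not tested.

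The enzymes that feed Pnmt were at low and similar levels in the 3 groups. Th (chr7:142892752-142931128, minus strand), the first and rate-limiting step, had means of 0.814 TPM in wild-type, 0.880 TPM in Tug1-/- and 0.945 TPM in rescue testes, with a Tug1-/- to wild-type ratio of 1.07. Dbh (chr2:27165233-27183200, plus strand), which makes the noradrenaline that Pnmt uses, had means of 0.131, 0.111 and 0.142 TPM and was below the minimum in each group. Ddc, the decarboxylase between Th and Dbh, had means of 0.751, 0.658 and 0.820 TPM. None of these 3 steps was past 1.5-fold, whereas Pnmt, the final step, was.

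Chga (chr12:102554969-102565028, plus strand), the main soluble protein of the chromaffin granule, was the most abundant of the 8 genes in wild-type testes. Its means were 10.9 TPM in wild-type, 15.2 TPM in Tug1-/- and 14.1 TPM in rescue testes. The ratio of Tug1-/- to wild type was 1.39, short of 1.5-fold, and rescue remained at 1.29-fold of the wild-type mean. Unlike Mrap, Pnmt and Cyp21a1, the rescue mean of Chga lay nearer to Tug1-/- than to wild type. The related granin Chgb had means of 15.9, 14.5 and 15.4 TPM.

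**Figure D2:**
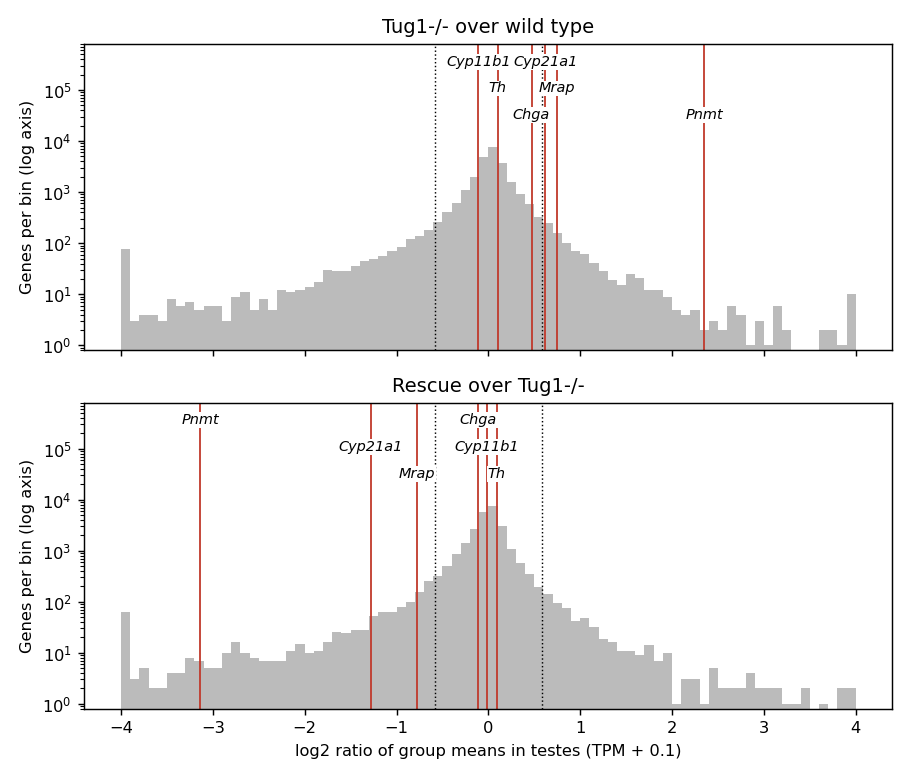
Number of genes (log axis) per bin of log2 ratio of group means in testes, for Tug1-/- over wild type (top) and rescue over Tug1-/- (bottom), with values beyond 4 in either direction placed in the end bins. Red lines mark the 6 adrenal-type genes past the minimum and dotted lines 1.5-fold; Pnmt lies far out at 2.35 in the top panel and -3.14 in the bottom panel.

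In the comparison of rescue with Tug1-/- testes, which shares the Tug1-/- group with the comparison above, 6 of the 8 genes reached the minimum. Mrap, Pnmt and Cyp21a1 were lower in rescue and none was higher, while 4.49% of all 25861 genes were lower and 2.26% were higher. A Tug1-/- mean that is high for any reason gives a ratio above 1 in the first comparison and below 1 in this one, so the return of these 3 genes is not a second observation. Without the minimum, the median ratio was 0.933 over the 8 genes and 0.9970 over all 34865 genes. Cyp11b1, Chga and Th were within 1.5-fold.

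Rescue was also set against wild type. Pnmt and Cyp21a1 were lower in rescue, none of the 8 genes was higher, and 4 of the 6 past the minimum were within 1.5-fold. Over all 26020 genes, 6.37% were lower and 3.53% were higher. Without the minimum, the median ratio was 1.02 over the 8 genes and 1.016 over all 34865 genes. By the library codes in the labels, 3 wild-type, 3 Tug1-/- and 1 rescue library have codes from 1984 to 1990, and 1 wild-type, 1 Tug1-/- and 2 rescue libraries have codes from 2217 to 2220, so rescue animals sat mostly in the later codes. Values within either run of codes cannot be had from group means.

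The genes around these steps were examined through lists that exclude the 8 genes. Of 18 adrenal cortex genes, 17 reached the minimum in wild-type or Tug1-/- testes, 3 were higher in Tug1-/- and 1 was lower, with a median ratio of 1.21. Over all genes past the same minimum, 3.54% were higher and 4.31% were lower, with a median ratio of 1.022. Star, which brings cholesterol into mitochondria, had means of 41.5 TPM in wild-type, 68.7 TPM in Tug1-/- and 44.5 TPM in rescue testes. Cyp11a1, which cuts the cholesterol side chain, had means of 43.2, 75.5 and 83.0 TPM, and in contrast to Star its rescue mean was 1.92-fold the wild-type mean. Wnt4, a signal of the outer adrenal cortex, had means of 0.523, 1.72 and 1.05 TPM. The ligand gene Shh was the single lower one, with means of 0.830, 0.413 and 0.0194 TPM. Hsd3b6, a steroid dehydrogenase, differed in rescue instead, with means of 136, 147 and 67.1 TPM.

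Of 20 catecholamine synthesis and granule genes, 19 reached the minimum, 1 was higher in Tug1-/- testes and 2 were lower, with a median ratio of 0.935. Over all genes, 3.54% were higher and 4.31% were lower. Pcsk1n, an inhibitor of prohormone convertase, had means of 3.90 TPM in wild-type, 7.24 TPM in Tug1-/- and 6.62 TPM in rescue testes. Npy, which encodes neuropeptide Y, had means of 23.0, 3.90 and 0.0577 TPM, and Cyb561, the granule electron carrier, 47.7, 28.7 and 16.8 TPM. The order of both, highest in wild type and lowest in rescue, was also that of the summed epididymal markers. Shh, given above, and Adra2c and Erbb3, given below, had the same order. The part of epididymal RNA in any of these values was not tested. Resp18 had means of 0.577, 0.642 and 0.265 TPM, and Scg3, a granin relative, 1.15, 1.69 and 1.79 TPM.

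Transcription factors and other identity genes of chromaffin and sympathetic cells were mostly below the minimum. Of 13 such genes, 5 reached the minimum, 1 was higher in Tug1-/- testes and none was lower, beside 3.54% higher and 4.31% lower over all genes. Phox2a and Hand2, transcription factors that help define these cells, were at most 0.143 TPM in any group. The gene past 1.5-fold was Tubb3, a neuronal tubulin, with means of 37.5, 59.1 and 62.7 TPM in wild type, Tug1-/- and rescue. Gata3 had means of 1.88, 1.73 and 0.851 TPM. In the list of hormone ligands, inactivating enzymes and receptors, Adra2c, a receptor for catecholamines, was lower in Tug1-/-, with means of 0.632, 0.174 and 0.0821 TPM.

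Markers of other cell types differed between these groups as well. Of 12 Leydig cell markers, 6 were higher in Tug1-/- testes and none was lower, beside 3.54% higher and 4.31% lower over all genes. The median ratio was 1.57, with summed means of 731 TPM in wild-type, 1087 TPM in Tug1-/- and 783 TPM in rescue testes. Insl3, a peptide hormone of Leydig cells, had means of 56.9, 144 and 65.5 TPM, highest in Tug1-/- as for Mrap. Between rescue and Tug1-/- testes, 6 of the 12 were lower and none was higher, with a median ratio of 0.704. Over all genes, 4.49% were lower and 2.26% higher. This comparison shares the Tug1-/- group with the one above. Set against wild type, the markers did not share one pattern in rescue. There 2 were higher and 4 were lower, beside 3.53% higher and 6.37% lower over all genes. Lhcgr, the receptor for luteinizing hormone, had means of 6.33, 9.46 and 9.93 TPM and Cyp17a1, an enzyme of androgen synthesis, 235, 341 and 315 TPM, so that both stayed near the Tug1-/- mean. The kallikrein gene Klk1b21 had means of 23.8, 56.4 and 5.45 TPM, and with Klk1b24, Klk1b27 and Hsd3b6 it was lower in rescue than in wild type. Klk1b21, Klk1b24 and Klk1b27 were also among the 6 markers higher in Tug1-/- testes. The study had already reported these kallikreins as changed in the same testes, so they were bound to be counted. The others of the 6 were Insl3, Cyp11a1 and Star, with Tug1-/- to wild-type ratios of 2.52, 1.75 and 1.66. Of these 12 genes, 4 (Star, Cyp11a1, Hsd3b1 and Hsd3b6) are also in the adrenal cortex list. Of 12 adipocyte markers, 11 reached the minimum, 6 were higher in Tug1-/- and none was lower, set against the same shares over all genes, with a median ratio of 1.52. Car3 had means of 2.74, 9.98 and 4.40 TPM and Cfd 5.54, 13.4 and 8.12 TPM, while Adipoq had 23.7, 23.3 and 22.8 TPM. Adipoq did not follow Plin1 across tissues. Wild-type testes had 23.7 TPM of Adipoq and 0.884 TPM of Plin1, and wild-type eyes 30.7 and 10.5 TPM. The summed means of the list were 461, 460 and 469 TPM. They were made up mostly of Lipe (203, 182 and 184 TPM) and Pnpla2 (216, 218 and 238 TPM). Between rescue and Tug1-/- testes, 4 of 11 adipocyte markers were lower and none was higher, with a median ratio of 0.815. In bulk testes, a different number of cells of a type and a different amount of RNA per cell cannot be told apart, and the part of either cell type in the values of Mrap, Pnmt and Cyp21a1 was not tested.

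Over all genes, 3.54% were higher and 4.31% lower in Tug1-/- testes, so that a single gene past the threshold in a short list says little. Of 10 Sertoli cell markers, none was past 1.5-fold between Tug1-/- and wild type, with a median ratio of 1.24. Their summed means were 1141, 1191 and 1257 TPM, mostly from Clu (848, 809 and 818 TPM). Between rescue and wild type, 4 of the 10 were higher and none was lower, with a median ratio of 1.41. Over all genes, 3.53% were higher and 6.37% lower in that comparison. Of 8 macrophage markers, 1 was higher in Tug1-/- than in wild type, with a median ratio of 1.29 and summed means of 84.6, 110 and 121 TPM. The higher one was Cd163, with means of 1.45, 3.16 and 2.32 TPM in wild type, Tug1-/- and rescue. Between rescue and wild type, 4 of the 8 were higher and none was lower, with a median ratio of 1.44, set against the same shares over all genes. Of 8 Schwann cell markers, 7 reached the minimum and 1 was lower (Erbb3, with 5.20 TPM in wild type against 3.23 TPM in Tug1-/-), with a median ratio of 1.01 and summed means of 26.2, 27.5 and 25.4 TPM.

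Outside the testes, 35 pairs of a gene and a tissue were listed among 7 tissues, 21 of these reached the minimum, and 6 were past 1.5-fold, 5 higher and 1 lower in Tug1-/-. In the eyes, 2 of 4 genes past the minimum were higher, beside 10.1% of all genes past 1.5-fold in either direction. In the prostate this was 2 of 3, beside 10.3%, in the brain 1 of 5, beside 8.91%, and in MEF 1 of 2, beside 9.90%. In heart (3 genes past the minimum, 6.27% of all genes), liver (2 genes, 7.73%) and spleen (2 genes, 12.7%) none of the 8 was past 1.5-fold. Levels from the testes and from the other tissues come from tables that were normalized separately.

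Mrap was the most widely listed gene and was highest in liver. In wild-type mice its means were 49.5 TPM in liver, 10.3 TPM in heart, 5.42 TPM in spleen, 4.83 TPM in testes, 2.82 TPM in eyes, 1.78 TPM in prostate and 0.577 TPM in brain, and it was not listed in MEF. In Tug1-/- mice the means were 42.7 TPM in liver, 11.6 TPM in heart, 8.13 TPM in spleen, 10.1 TPM in eyes, 4.03 TPM in prostate and 0.411 TPM in brain. The eyes gave the largest ratio of Mrap, 3.51, and the prostate, with 2 Tug1-/- animals, a ratio of 2.19. In spleen the ratio was 1.49, just short of 1.5-fold, in a tissue whose median gene had a ratio of 0.9252.

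In both tissues where Mrap was past 1.5-fold outside the testes, adipocyte markers were higher too. In the eyes, 12 of 12 adipocyte markers were higher in Tug1-/-, beside 10.1% of all genes past 1.5-fold in either direction. Their median ratio was 2.70, and the mean of Adipoq was 30.7 TPM without and 91.4 TPM with the deletion. In the prostate, 9 of 12 were higher, beside 10.3% of all genes in either direction, with a median ratio of 3.57, and Adipoq had means of 9.65 and 42.7 TPM. In heart, 7 of 11 markers past the minimum were lower, beside 6.27% of all genes in either direction, with a median ratio of 0.564, while the Mrap ratio was 1.13. In liver, 4 of 7 were lower, beside 7.73% of all genes in either direction. The median ratio there was 0.652 and the Mrap ratio 0.864. In brain, none of 5 was past 1.5-fold, beside 8.91% of all genes in either direction. The median ratio there was 0.963 and the Mrap ratio 0.755. In spleen, where the Mrap ratio was 1.49, none of 8 adipocyte markers past the minimum was higher and 1 was lower, beside 12.7% of all genes in either direction, with a median ratio of 0.925. Mrap and the markers were read from the same libraries, and the part of fat tissue in the Mrap values was not tested.

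**Figure D3:**
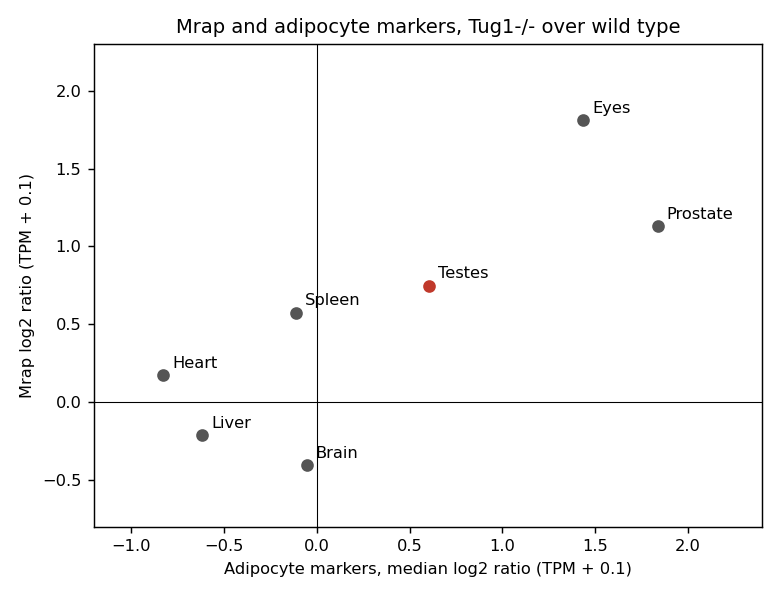
log2 ratio of Mrap (vertical axis) against the median log2 ratio of 12 adipocyte markers (horizontal axis) in each tissue where Mrap was listed, Tug1-/- over wild type, 1 point per tissue. Eyes and prostate lie at the upper right, testes (red) next, and heart and liver at the left.

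Cyp21a1 was highest in spleen, at a wild-type mean of 12.8 TPM and a Tug1-/- mean of 14.2 TPM, a ratio of 1.11. In prostate it had means of 1.21 and 2.20 TPM, a ratio of 1.75, at a mean normalized count of 45.2. In liver the means were 0.399 and 0.600 TPM and in eyes 0.0372 and 0.0390 TPM, below the minimum. Cyp21a1 was not listed in brain, heart or MEF. The ratio of Cyp21a1 was thus above 1 in testes and in each of these 4 tissues, but past 1.5-fold only in testes and prostate.

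Pnmt was low in every tissue where it was listed. Wild-type means were 1.249 TPM in heart, 0.893 TPM in testes, 0.671 TPM in eyes and 0.545 TPM in brain, and Tug1-/- means were 1.82 TPM in heart, 0.594 TPM in eyes and 1.28 TPM in brain. The brain ratio of 2.13 rests on a mean normalized count of 3.63, a level at which single reads matter. The 4.97 TPM of Tug1-/- testes was the highest mean of Pnmt in any group of any tissue.

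Cyp11b1 was highest in testes, followed by MEF, where the wild-type mean of 0.943 TPM stood against 0.538 TPM in Tug1-/-, a ratio of 0.611 at a mean normalized count of 24.8. In brain, eyes and spleen it was at most 0.139 TPM. Mc2r reached the minimum only in MEF, with means of 0.760 and 0.608 TPM at a mean normalized count of 11.1.

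Chga, Th and Dbh had their highest means in brain. In wild-type and Tug1-/- mice, Chga had means of 228 and 224 TPM in brain and of 125 and 102 TPM in eyes, against 10.9 TPM in wild-type testes. Th had means of 34.6 and 30.6 TPM in brain and 3.52 and 5.35 TPM in eyes, where its ratio of 1.51 was just past 1.5-fold. Dbh had means of 3.42 and 3.49 TPM in brain and 2.70 and 3.16 TPM in heart. Th was below the minimum in heart, with means of 0.155 and 0.0645 TPM. In prostate, Chga had means of 0.695 and 0.554 TPM, and Th and Dbh were below 0.1 TPM. None of the 3 genes was listed in liver or spleen.

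**Figure D4:**
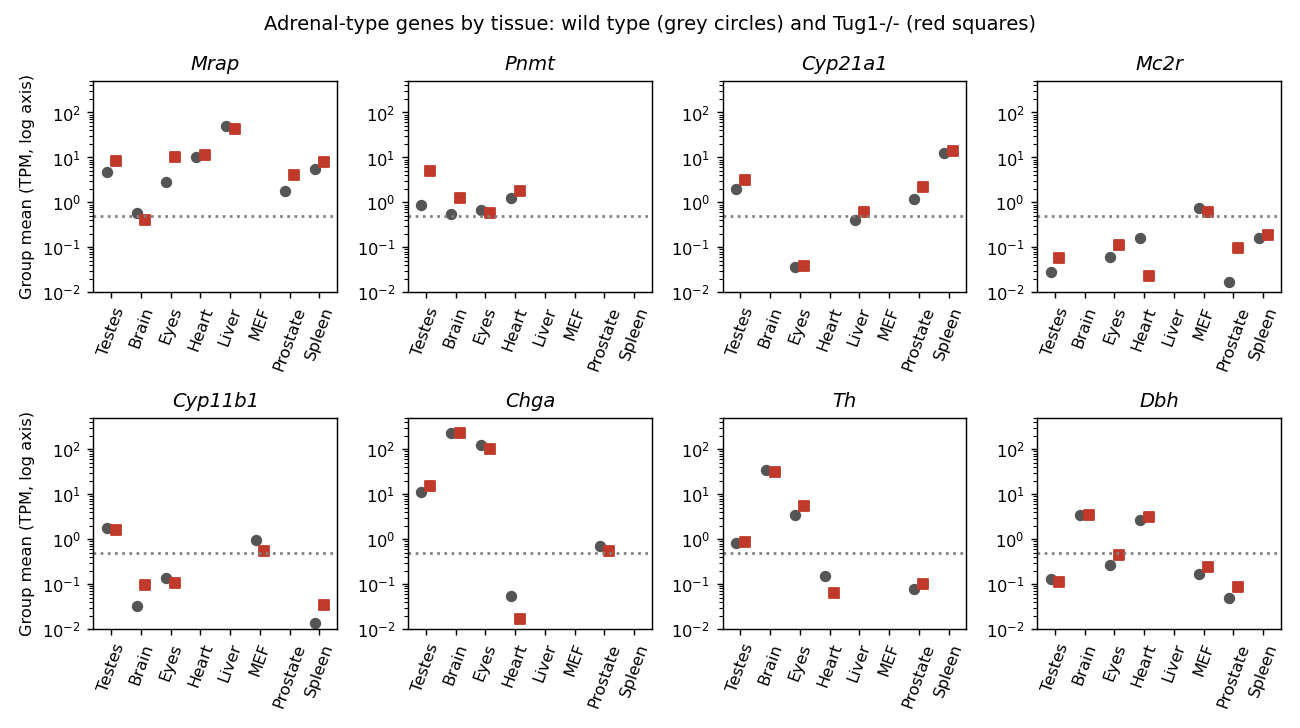
Authors' mean TPM (log axis, same scale in each panel) of the 8 genes in 8 tissues, wild type as grey circles and Tug1-/- as red squares, with no point where a gene was not listed and a dotted line at 0.5 TPM. Mrap peaks in liver at 49.5 TPM, Cyp21a1 in spleen at 12.8 TPM, and Chga in brain at 228 TPM in wild type.

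The genes most like each of the 8 across wild-type tissues were found by Pearson's r of log2(TPM + 0.1) over the 8 tissue means, among 29405 genes that reached 1 TPM in some tissue, with genes not listed in a tissue set to 0. This is a description over 8 points and carries no p. For Chga these were Mdga2 (r = 0.997), Lhfpl3 (r = 0.993) and Ttyh1 (r = 0.993), and for Th Lrrtm3 (r = 0.996), Rab9b (r = 0.996) and Grm3 (r = 0.992), all highest in brain. For Dbh these were Igsf1 (r = 0.964), Gm12691 (r = 0.963) and Gm10635 (r = 0.950). For Mrap they were Lrg1 (r = 0.974), Selenbp1 (r = 0.951) and Igfals (r = 0.934), all highest in liver. For Pnmt they were Hhatl (r = 0.986), Togaram2 (r = 0.985) and Cidea (r = 0.979), all highest in heart. For Cyp21a1 they were Gm43936 (r = 0.947), Card6 (r = 0.945) and Xlr4a (r = 0.945), all highest in spleen. For Cyp11b1 they were Gm17308 (r = 0.995), Malrd1 (r = 0.993) and Gm12263 (r = 0.989), all highest in testes. Mc2r did not reach 1 TPM in any tissue.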

How the data were processed

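The authors sequenced polyadenylated RNA (TruSeq RNA v2), aligned it with STAR to GRCm38, counted uniquely mapped reads on GENCODE vM16 genes with featureCounts, left out genes under 3 reads in every replicate and deposited mean TPM per group. Base calling used CASAVA 1.8.2, per the submitters' processing notes, which also name DESeq2. For the tissues other than testes the authors also deposited a mean normalized count over both genotypes, a coverage-like signal used here only to show depth. The strand setting is not given in the sources used here. The deposited fold changes, test statistics, p-values and significance labels are the study's own comparisons and were not used.

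Values of single samples were not used here, so ratios of group means were formed without tests. The pseudocount was 0.1 TPM, the minimum 0.5 TPM in either group and the threshold 1.5-fold. A list's median is the median on the log2 scale, turned back into a ratio. The ratio calculation was tested on simulated data with Python 3.11.15 tools (pandas 2.3.3, numpy 2.4.6). The 8 genes and all lists were chosen with earlier results of these data known. Named genes are the 8 genes, Tug1, up to 6 genes per list past 1.5-fold in testes and genes of the same pathway step. The 3 genes most like each of the 8 are named too. Tcap, Stard3, Pgap3, Erbb2, Mien1, Cyp21a2-ps, Gml2, Tnxa and marker examples were named for their position or role. Alternatives were a pseudocount of 1 or 0.01 TPM, a minimum of 1 TPM or none, a lower or a 2-fold threshold, and ratios divided by the median ratio. Some genes of the lists are not reported here.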

Additional observations from a re-analysis of the deposited data

How the results depend on the processing

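No paired analysis was possible because the tables hold group means, and leaving out single animals was not possible for the same reason. Between Tug1-/- and wild-type testes, 3 of the 8 genes were past the threshold. This became 1 at 2-fold, where Pnmt alone was left, and with a pseudocount of 1 TPM Cyp21a1 dropped below 1.5-fold (log2 ratio 0.46). Between rescue and Tug1-/- testes, the count was 2 or 3 under each alternative. Between rescue and wild type, the count of 2 became 0 with a pseudocount of 1 TPM, 1 with a minimum of 1 TPM and 0 at 2-fold. Outside the testes, the 6 pairs of gene and tissue became 2 with a pseudocount of 1 TPM, 10 with no minimum, 10 at the lower fold threshold and 3 at 2-fold. These thresholds admit more or fewer genes by construction. Dividing by the median ratio brought Mrap in spleen past 1.5-fold (log2 ratio 0.69). No log2 ratio of a gene past 1.5-fold changed its sign under any of these alternatives. Of the median ratios over all genes, those in eyes and spleen were farthest from 0 on the log2 scale, at -0.110 and -0.112. Epididymal RNA, and any single animal behind a mean, could not be removed from the group means.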
